A study of Mus musculus with 12 samples.

Results

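The kinesin, dynein and dynactin genes of the mouse were examined for m1A (N1-methyladenosine, a methylated form of adenosine in RNA) in the caudate putamen. They were the protein-coding genes of the RefSeq table of GRCm38 whose symbols begin with Kif or Klc and a number, Kifc, Dync, Dynl, or Dctn and a number. The rule used names and no measured value, but the set was chosen with earlier results of these data known. The rule took 68 of 21896 protein-coding genes, and 36 of these 68 had at least 1 m1A peak in the data. A peak counted for a gene when its summit lay inside the gene span. The 36 genes held 195 peaks, which merged into 110 regions when peaks sharing at least 1 bp were joined. The summits of 9 of these regions, in 7 of the genes, lay inside another gene as well, and the lists do not tell such genes apart.

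Kinesins and cytoplasmic dynein are motor proteins that walk along microtubules. Most kinesins move toward the growing plus end, which in an axon points to the terminal, while dynein moves toward the minus end and returns cargo to the cell body. Dynactin is the complex that couples dynein to its cargo, and neurons depend on both directions of traffic to supply and clear synapses. Other kinesins build the mitotic spindle or work in cilia.

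All animals were adult male mice carrying the floxed Tet1 allele (Tet1 fl/fl). Control tissue received AAV-EGFP and is labelled Tet1 fl/fl, while knockout (KO) tissue received AAV-Cre-EGFP and is labelled Tet1 delta/delta. In both groups the caudate putamen, the dorsal part of the striatum, was taken 2 weeks after injection of the virus. Each genotype had 3 m1A pull-down libraries with 3 matching inputs, 12 samples in all, and the comparison asks at which RNAs m1A differs once TET1 is lost. The labels name no promoter for Cre, so the cells that lost Tet1 within the dissected tissue are not specified, and they do not say whether the numbered libraries came from separate animals. Any p-value over libraries therefore measures only the spread between these libraries.

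The peak caller used between 459332 and 1097292 pull-down tags in the control libraries and between 1235247 and 2508102 in the KO libraries, so the deepest control had fewer tags than the shallowest KO library. The lists held 3004 to 3444 peaks in controls and 3057 to 6947 in KO. Control 1 and KO 2 stood apart, and results that rest on them are given with and without them. Control 1 was the shallowest and was called with every duplicate tag kept, and 1270 of its 3179 peaks (39.9%) had a pileup, the tag coverage at the summit, of only 3. KO 2 was the deepest and had the longest list. Tet1 had no peak in any list, which leaves the deletion itself unchecked by these data. A gene without a peak was not called at that depth, which does not show that its RNA lacks m1A. In bulk tissue, fewer cells of a type and less RNA per cell cannot be told apart. A peak was found for 12 of 15 listed markers of striatal projection neurons, 6 of 7 of oligodendrocytes, 3 of 7 of astrocytes and 3 of 5 of cortical excitatory neurons. It was found for 2 of 6 markers of microglia, 2 of 4 of endothelium, 1 of 5 of ependyma and choroid plexus and 0 of 5 of dividing cells.

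Motor genes carried peaks in a larger share than protein-coding genes as a whole. A peak in at least 1 library was found for 36 of 68 motor genes (52.9%) and for 26.2% of all protein-coding genes. A peak in all 6 libraries was found for 8 motor genes (11.8%) against 2.3% of protein-coding genes, and a peak in at least 4 libraries for 13 (19.1%) against 6.95%. The median motor gene had a peak in 1 library and the median protein-coding gene in 0. Motor genes also had longer spans, with a median of 36.4 kb against 17.1 kb, and the part of span length in these shares was not tested. Among genes with a peak the medians were 41.0 kb and 40.7 kb.

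**Figure D1:**
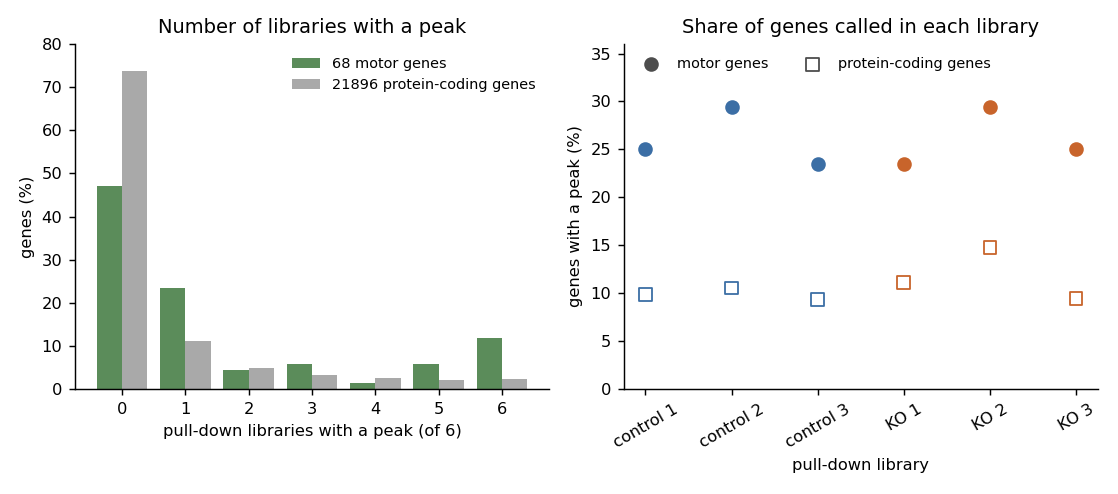
Left, the percentage of the 68 motor genes and of the 21896 protein-coding genes that had a peak in 0 to 6 pull-down libraries. Right, the percentage of each set with a peak in each library, with blue for controls and orange for KO; motor genes (filled circles) lay between 23.5% and 29.4% in every library and protein-coding genes (open squares) between 9.38% and 14.8%.

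The number of motor genes with a peak did not differ between the genotypes on average. Controls 1, 2 and 3 had 17, 20 and 16 motor genes with a peak, and KO 1, 2 and 3 had 16, 20 and 17, a mean of 17.7 ± 2.08 (SD, n = 3) in each genotype. The groups overlapped completely. Over all protein-coding genes the mean was 2175 ± 127 in controls and 2579 ± 600 in KO (SD, n = 3). Motor genes thus made up 0.811% ± 0.0493 of the genes called in controls and 0.700% ± 0.110 in KO, ranges that also overlapped, with 0.825% in KO 3 above the 0.779% of control 3. Of the 36 motor genes with a peak, 7 (19.4%) had it in KO libraries alone and 10 (27.8%) in controls alone, against 32.4% and 21.6% of all protein-coding genes with a peak. Of the 10, 6 were in control 1 alone, so that without control 1 the counts were 9 (30%) and 4 (13.3%) of 30, against 44.7% and 11.4%. Without KO 2 they were 4 (12.1%) and 14 (42.4%) of 33, against 19.6% and 36.3%, and without both libraries 6 (22.2%) and 8 (29.6%) of 27, against 29.4% and 22.7%. No motor gene had peaks in every KO library and lacked one in every control, a pattern found in 0.457% of protein-coding genes, and none in all 3 controls and no KO library (0.215%). Fisher's exact test, two-sided, on the libraries with and without a peak cannot go below p = 0.1 with 3 libraries against 3. Over 5744 genes with a peak, no gene had an unadjusted p under 0.05, and the smallest Benjamini-Hochberg adjusted p was 1.

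Within each list the peaks of motor genes were mostly higher in coverage but lower in enrichment than the list as a whole. The caller's fold enrichment (pull-down over local background at the summit) and pileup are the authors' own values for each peak. They are set here against the list they came from. Where folds or pileups of separate lists stand side by side below, they were not tested against each other. The median fold of motor gene peaks was below the median of the whole list in each of the 6 libraries, for example 5.94 against 7.18 in control 3 and 5.63 against 7.53 in KO 3. Their median pileup was above the list's in 5 libraries, where it lay between 23.5 and 28, while in control 1 it was 3.5 against 4.

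**Figure D2:**
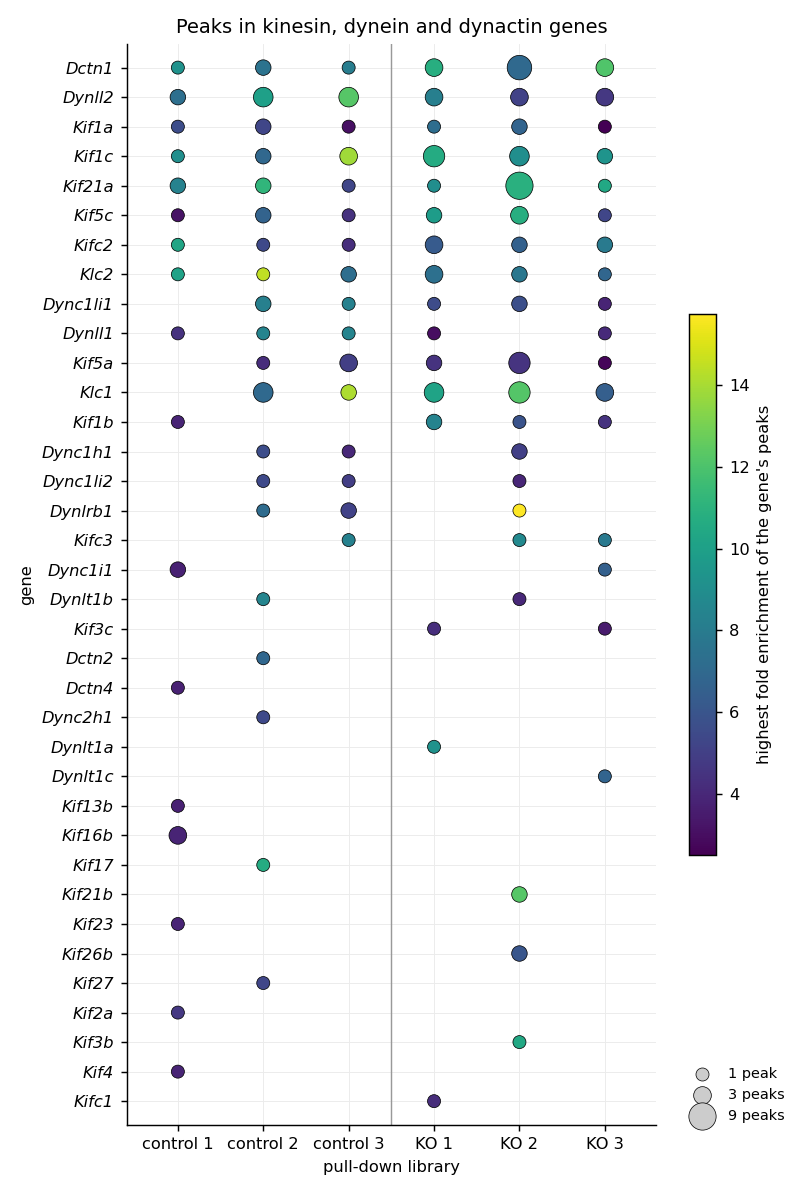
The 36 motor genes with a peak (vertical axis) in the 6 pull-down libraries (horizontal axis). A circle marks a gene with a peak, its area grows with the number of peaks and its colour gives the highest fold enrichment; the 8 genes in the top rows had a peak in all 6 libraries, and 16 genes had one in a single library.

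Among the retrograde motor genes, peaks were found in 4 of 5 genes of cytoplasmic dynein 1, in 6 of 9 dynein light chains and in 3 of 6 dynactin genes. The dynein 1 gene without one was Dync1i2, which encodes an intermediate chain. Dync1i1, the other intermediate chain, had 2 peaks in control 1, both with a pileup of 3, and 1 in KO 3, in 3 separate regions. Dync1h1, the heavy chain that carries the motor domain, had peaks in control 2 (fold 5.61), control 3 (4.01) and KO 2 (up to 5.04), but these fell in 4 different regions, none shared by a pair of libraries. Dync1li2, a light intermediate chain that binds cargo adaptors, was called at 1 region in the same 3 libraries, with folds of 5.42, 4.95 and 3.94. Dynlrb1, a roadblock light chain, was also called in these 3 libraries, at folds of 7.16, 5.13 and 15.7. All 3 genes were thus missing from control 1, KO 1 and KO 3.

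Dync1li1, the other light intermediate chain, was called more widely. Its region at chr9:114688903-114689225 had folds of 8.22 in control 2 and 8.29 in control 3, and of 5.57, 5.70 and 3.84 in KO 1, 2 and 3, and was not called in control 1. Its median summit lay 206 bp after the listed transcription start. Dynll1 and Dynll2 encode the light chains that also serve as binding hubs for many other proteins. Dynll1 had a peak in control 1 inside the gene (4.41) and was called at chr5:115300477-115300885 in control 2 (8.50), control 3 (8.49), KO 1 (3.01) and KO 3 (4.08), with a median summit 336 bp after its listed start. At both of these regions the folds of the called controls were higher than those of the KO libraries, but these ratios come from separately called lists and were not tested against each other.

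Dynll2 held 2 of the only 3 motor gene regions that were called in all 6 libraries. At chr11:87979821-87980381 its folds were 3.69, 3.02 and 3.70 in controls 1 to 3 and 2.92, 2.97 and 3.77 in KO 1 to 3. The pileup there was 71, 71 and 58 in controls and 97, 158 and 115 in KO, and the KO pull-downs were also the more deeply sequenced. At chr11:87987138-87987481 the folds were 7.30, 9.96 and 12.2 in controls and 8.15, 5.11 and 4.65 in KO, so KO 1 lay within the control range and the other KO libraries below it. A neighbouring region, chr11:87980577-87980962, was called in every library except control 1. For Dynll2 and 16 other motor genes no start site and strand were listed, so distances to a start are not given.

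Of the other light chains, Dynlt1a, Dynlt1b and Dynlt1c had 1 or 2 peaks each. These genes form a cluster of near-identical copies with Dynlt1f on chromosome 17, so which copy a peak belongs to is uncertain. Dync2h1, the heavy chain of the dynein that works in cilia, had 1 peak, in control 2. Among 20 axonemal dyneins, the ciliary motors outside the member rule, 8 (40%) had a peak, against 26.2% of protein-coding genes. Dnah7b had one in all 3 controls and no KO library, a pattern found in 0.215% of protein-coding genes. Its median fold was 19.8 and its highest 46.7. Dnah7a and Dnah7c, on the same chromosome, had no peak, and whether the Dnah7b peaks could belong to either was not examined. In a two-sided Fisher's exact test the Dnah7b pattern gives p = 0.1, the smallest that 3 libraries against 3 allow. No gene passed after adjustment.

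Dctn1 encodes the largest subunit of dynactin, the arm that contacts both dynein and the microtubule, and its peaks lay in different places in the 2 genotypes. The gene was called in all 6 libraries, with highest folds of 9.23, 7.53 and 8.05 in controls 1 to 3 and 10.8, 7.01 and 12.1 in KO 1 to 3. By gene the groups overlapped and the Fisher test gave p = 1. Of its 10 regions, 8 were called in KO libraries alone, 2 in controls alone and 0 in both. A single library held 6 of the 10, which therefore could not be shared. Kif1a and Kif1b also had 0 regions shared between the genotypes. The share of protein-coding genes with 0 shared regions was not computed, so how unusual Dctn1 is remains unknown. Over all 110 motor gene regions 56 (50.9%) were called in KO alone and 33 (30%) in controls alone, against 50.4% and 28.1% of regions in protein-coding genes. Single libraries decided these counts. Without KO 2, 23 of 77 regions (29.9%) were in KO alone, against 27% of regions in protein-coding genes. Without control 1, 19 of 96 (19.8%) were in controls alone, against 14.7%. Without both, 23 (36.5%) and 22 (34.9%) of 63 were in KO alone and in controls alone, against 35.9% and 30.5%.

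The Dctn1 region at chr6:83199678-83200047, with a median summit 208 bp before the annotated end of the gene, was called in all 3 controls (folds 9.23, 5.47 and 8.05, pileups 19, 41 and 37) and in no KO library. The region at chr6:83194004-83194362, 5970 bp before the gene end, was called in all 3 KO libraries (folds 10.8, 7.01 and 12.1, pileups 39, 33 and 44) and in no control. A region at chr6:83190517-83191264, 9000 bp before the end, was called in KO alone as well, with folds of 6.24, 5.75 and 5.84. The control region was therefore missing from the deeper libraries and the KO regions from the shallower ones. KO 2 alone added 4 more regions. Each of the 3 kept its separation with a minimum −log10 q of 5, a minimum fold of 4 and lists of equal length. Leaving libraries out could not have undone so complete a separation, so those settings did not test it. Whether these regions are exonic or intronic was not analysed here, since the annotation used gives spans without exons.

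Few regions were separated in this way. Of the 110 motor gene regions, 3 (2.73%) were found in every KO list and absent from every control list, against 1.23% of the 11830 regions in protein-coding genes. The reverse pattern held for 2 (1.82%) against 0.685%. Over the 11830 regions the same Fisher test gave no unadjusted p under 0.05 and a smallest adjusted p of 1. Of these 5 motor gene regions 3 were in Dctn1, and the other 2 were in Kif21a and Kifc2. The counts are too small to set motor genes apart from the rest. In protein-coding genes with a listed start, 68 regions were found in every control list and absent from every KO list. Of the 68, 2 (2.94%) lay within 500 bp of the gene end, and the one in Dctn1 was 1 of these.

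**Figure D3:**
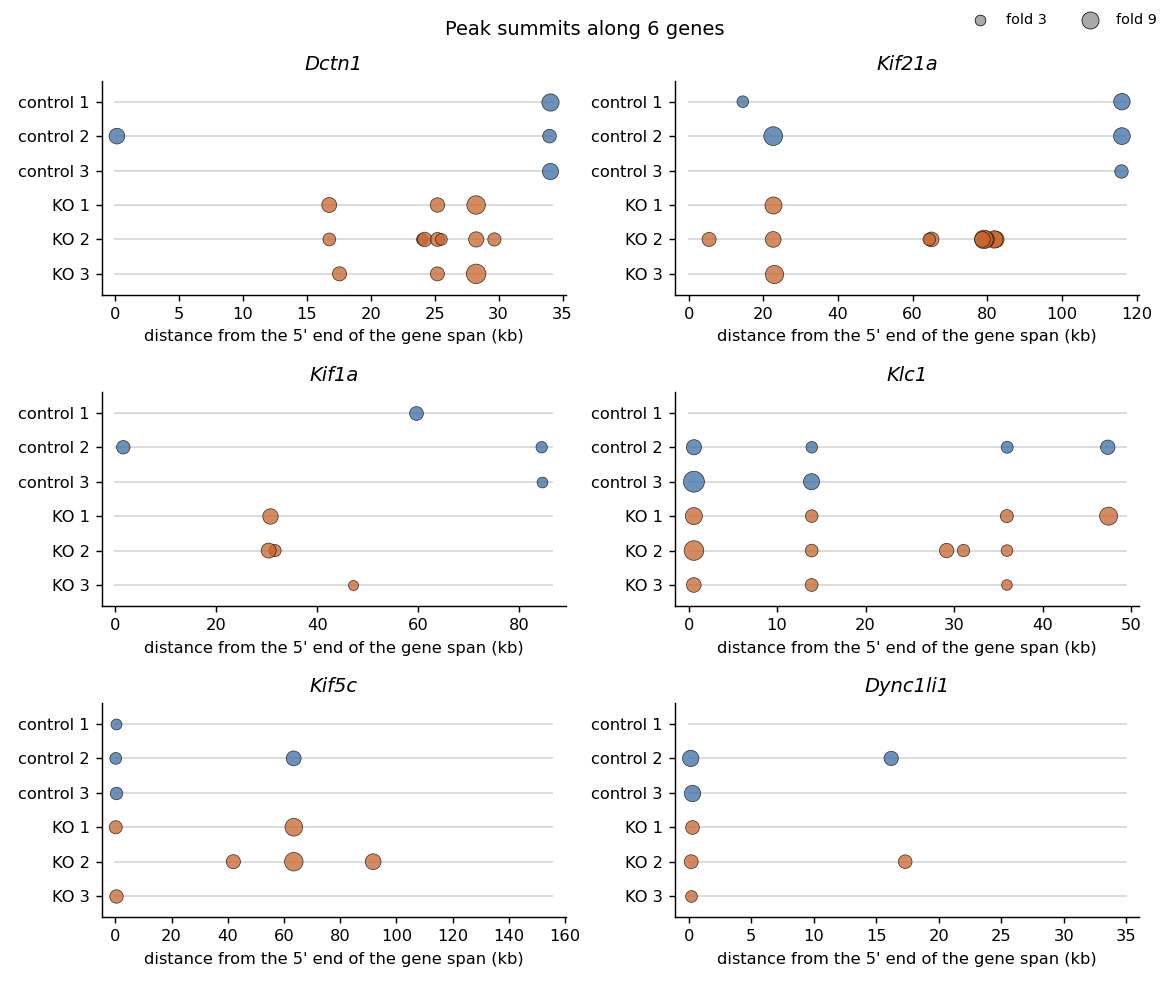
Peak summits along Dctn1, Kif21a, Kif1a, Klc1, Kif5c and Dync1li1, drawn as distance in kb from the 5′ end of each gene span, with 1 line for each pull-down library. Circles are peaks (blue control, orange KO) and their area grows with fold enrichment; the 3 controls share a Dctn1 position at the gene end (control 2 has another at the 5′ end) and the KO peaks lie between them, while Klc1, Kif5c and Dync1li1 share a position at the start.

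Dctn2, which encodes dynamitin, the subunit that holds dynactin together, had a single peak, in control 2 (fold 6.88), 202 bp after its start. Dctn4, a subunit of the pointed end, had one in control 1 with a pileup of 3. Dctn3, Dctn5 and Dctn6 had none.

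Kinesin-1, the main anterograde motor of axons, had peaks in 4 of 7 genes, and each of the 4 was called in at least 5 libraries. Kif5a and Kif5c, its neuronal heavy chains, and Klc1 and Klc2, the light chains that bind cargo, were called. Kif5b, the heavy chain made in most cell types, had no peak, and neither had Klc3 and Klc4.

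Klc2 held the remaining region called in all 6 libraries, chr19:5117982-5118250, 179 bp from the edge of its span. Its folds were 10.1, 14.5 and 6.80 in controls and 7.36, 7.77 and 6.86 in KO, so the KO values lay within the control range. The summit also fell inside LOC115489018.

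Klc1 was called in every library but control 1, at 3 recurring positions. The region at chr12:111758914-111759145, 169 bp after a listed start, had folds of 6.98 and 14.1 in controls 2 and 3 and of 9.03, 12.2 and 6.45 in KO. The region at chr12:111772182-111772490 was called in the same 5 libraries at 3.66 to 7.96, and that at chr12:111794269-111794549 in 4. Both genotypes shared 4 of the 6 Klc1 regions, and KO 2 alone had the other 2. Of the shared regions, the 1 in control 2 and KO 1 also lay inside Xrcc3.

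Kif5c was called 162 bp after its listed start, at chr2:49619305-49619666, with folds of 3.16, 3.90 and 4.42 in controls, 4.99 in KO 1 and 5.30 in KO 3. It was not called there in KO 2, the deepest library, whose 3 Kif5c peaks lay further inside the gene. Kif5a had 7 regions, and the one at chr10:127241892-127242144 was shared by all libraries but control 1, at folds of 4.21 and 4.96 in controls and 4.46, 3.01 and 2.73 in KO. KO 2 alone held 3 of the others.

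**Figure D4:**
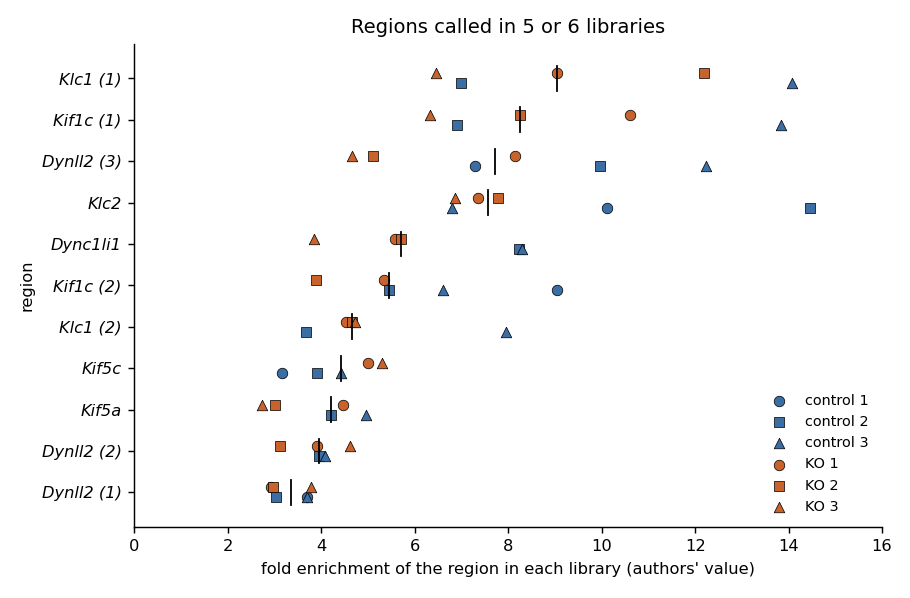
Fold enrichment (horizontal axis, the authors' value in each list) of the 11 motor gene regions called in 5 or 6 libraries, numbered along the chromosome within a gene. The lists were called separately and their folds were not tested against each other. Blue symbols are controls, orange symbols KO libraries and the vertical ticks medians; control and KO values overlapped in each region except those of Dync1li1 (called controls 8.22 and 8.29, KO 3.84 to 5.70), Kif1c (2) (controls 5.44 to 9.04, KO 3.89 and 5.35) and Kif5c (controls 3.16 to 4.42, KO 4.99 and 5.30).

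Kinesin-3 motors, which carry synaptic vesicle precursors and other organelles, had peaks in 5 of 8 genes. Kif1a, which moves synaptic vesicle precursors down the axon, was called in all 6 libraries, with highest folds of 5.59, 5.31 and 3.08 in controls and 7.21, 6.75 and 2.53 in KO. Those calls came from 7 regions. The controls shared 1 of them in a pair of libraries, the other 6 were each in a single library, and none was shared between genotypes. Kif1c, which carries dense-core vesicles and integrins, was steadier, with regions at chr11:70724726-70725083 (folds 6.91 and 13.8 in controls 2 and 3, and 10.6, 8.25 and 6.33 in KO) and chr11:70726182-70726533 (9.04, 5.44 and 6.60 in controls, 5.35 in KO 1 and 3.89 in KO 2). Kif1b, a carrier of mitochondria and vesicles, was called in all 3 KO libraries (highest folds 8.42, 5.91 and 4.46) and in control 1 (3.84). The control 1 peak had a pileup of 3, and without peaks of that pileup Kif1b would be a gene called in KO alone. Its KO peaks lay in 3 regions, of which 1 was shared by KO 1 and KO 3.

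Among kinesin-4 genes, which slow or stop microtubule growth, Kif21a was called in all 6 libraries and Kif21b in KO 2 alone (2 regions, folds up to 12.2). Kif21a was called at chr15:90934248-90934651, 1038 bp before the gene end, in all 3 controls (folds 8.37, 8.76 and 5.27) and in no KO library. The pileups there were only 11, 19 and 7, and with a minimum −log10 q of 5 the region remained in 2 of 3 controls. KO 2 alone held 8 of the 11 Kif21a regions. A region in the 5′ part of the gene, chr15:91027518-91027858, was called in control 2 (11.1) and in KO 1, 2 and 3 (9.02, 7.56 and 10.5).

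Of the kinesin-14 genes, whose motors move toward the minus end, Kifc2, Kifc3 and Kifc1 had peaks. Kifc2, a neuronal member, was called in all 6 libraries at 6 regions, none in more than 3. The region chr15:76661854-76662292 was called in all 3 KO libraries (4.45, 6.59 and 5.63) and in no control, while chr15:76662709-76662947 was called in controls 1 and 2 alone (10.3 and 5.44). These 2 regions are neighbours in the same gene. The only Kifc2 region shared by both genotypes, in control 3 and KO 2, also had its summit inside Foxh1. Kifc3 was called at 1 region in control 3 (8.29), KO 2 (8.74) and KO 3 (7.86). Kifc1, a spindle motor with the near-identical copy Kifc5b, had 1 peak of uncertain assignment in KO 1.

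Kinesin-2 genes, motors of cilia and of dendritic cargo, were called sparsely. Kif17, which carries NMDA receptor subunits into dendrites, had 1 peak in control 2 (fold 10.6), 414 bp after its start. Kif3b had 1 in KO 2 (10.5), and Kif3c had a region in KO 1 (4.25) and KO 3 (3.50). Kif3a had none.

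Of kinesin-5, kinesin-10 and kinesin-12 no gene had a peak, among them the spindle motors Kif11 and Kif15. Kif23, needed for cytokinesis, and the chromosome-bound Kif4 had 1 peak each, in control 1 alone and with a pileup of 3. None of the 3 kinesin-8 and 2 kinesin-9 genes had a peak either. Over all protein-coding genes 73.8% had no peak, and these families are too small to set apart from that share. Of the remaining members, Kif2a, which shortens microtubules from their ends, had 1 peak in control 1 with a pileup of 4, Kif26b had 2 peaks in KO 2, and Kif27 had 1 in control 2.

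Calls in single libraries made up much of the list. Of the 36 motor genes with a peak, 16 (44.4%) had it in 1 library alone, close to the 42.5% of protein-coding genes with a peak. In control 1 alone were 6 of them (16.7%, against 11.6%), namely Dctn4, Kif13b, Kif16b, Kif2a, Kif23 and Kif4. Control 1 held 22 motor gene peaks, of which 11 had a pileup of 3. Of the 110 regions, 76 (69.1%) were called in a single library and 3 (2.73%) in all 6, against 68.6% and 3.07% of regions in protein-coding genes. Without control 1, 9 of 96 motor gene regions (9.38%) were in all remaining libraries, against 6.63%, and without control 1 and KO 2 it was 11 of 63 (17.5%), against 14.3%. By gene the share called in all libraries without control 1 and KO 2 was 17.6%, against 4.1% of protein-coding genes.

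Position along the gene could be given for 51 of the 68 motor genes. A region was counted as near a start when a summit lay from 250 bp before to 500 bp after a listed start. This held for 8 of 79 motor gene regions (10.1%) and for 21.1% of 9322 regions in protein-coding genes. The 8 were in Dctn2, Dync1h1, Dync1li1, Dynll1, Kif17, Kif1c, Kif5c and Klc1. Of the motor gene regions called in 5 or 6 libraries 3 of 6 were near a start (41.5% among all genes), and of those in 1 library 3 of 57 (5.26%, against 14.2%). The share also differed between libraries over all protein-coding genes, at 17.0% of summits in control 1 and 11.8% in KO 2 against 31.8% to 41.8% in the others. For motor genes it was 6.25% in control 1, 5.13% in KO 2 and 22.7% to 42.9% in the others, so these 2 libraries were low in both sets.

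The 250 bases upstream of the listed start are shown for the 4 motor genes whose start-proximal region was called in at least 4 libraries, so that the sequence before a recurrent m1A position at a start can be read. The sequences are from RefSeq (GRCm38.p6), read 5′ to 3′ on the strand of the gene, with GGGCGG and its complement CCGCCC, the core of the GC box, in capitals. They lie at chr9:114688581-114688830 (plus strand) for Dync1li1, chr5:115300991-115301240 (minus) for Dynll1, chr2:49619036-49619285 (plus) for Kif5c and chr12:111758618-111758867 (plus) for Klc1. The m1A regions themselves begin after the start and are not part of these windows.
Dync1li1: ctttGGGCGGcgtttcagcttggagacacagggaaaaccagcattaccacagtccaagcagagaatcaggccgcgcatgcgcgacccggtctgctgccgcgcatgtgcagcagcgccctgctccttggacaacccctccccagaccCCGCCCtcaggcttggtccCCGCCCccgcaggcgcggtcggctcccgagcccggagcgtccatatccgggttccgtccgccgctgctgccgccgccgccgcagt
Dynll1: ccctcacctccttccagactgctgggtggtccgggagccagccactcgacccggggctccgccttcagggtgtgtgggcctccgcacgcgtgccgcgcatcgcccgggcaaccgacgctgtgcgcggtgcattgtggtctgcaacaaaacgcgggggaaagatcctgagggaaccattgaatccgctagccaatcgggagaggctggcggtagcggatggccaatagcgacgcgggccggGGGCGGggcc
Kif5c: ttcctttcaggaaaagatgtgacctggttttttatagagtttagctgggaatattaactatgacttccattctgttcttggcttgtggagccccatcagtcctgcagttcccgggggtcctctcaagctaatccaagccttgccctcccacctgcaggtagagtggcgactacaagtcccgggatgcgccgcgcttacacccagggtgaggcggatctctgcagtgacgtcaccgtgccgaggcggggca
Klc1: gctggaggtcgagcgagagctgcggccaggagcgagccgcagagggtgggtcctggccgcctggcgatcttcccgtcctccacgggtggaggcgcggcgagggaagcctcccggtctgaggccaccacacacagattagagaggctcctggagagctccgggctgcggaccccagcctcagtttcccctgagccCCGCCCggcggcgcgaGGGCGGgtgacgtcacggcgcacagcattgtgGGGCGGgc

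Dync1li1 and Klc1 each had 3 GC box cores, Dynll1 had 1 and Kif5c had 0. Their GC content was 69.6%, 72.4%, 68.8% and 55.2% in that order. At least 1 core, on either strand, was present in 42.6% of the 21262 windows of protein-coding genes and in 60.3% of the 58 motor gene windows. Motor genes without a peak had it in 60.7% of windows, those with peaks elsewhere only in 59.1% and those with a start-proximal region in 62.5%. The median GC content was 67.6% over the 8 windows of genes with a start-proximal region, 64% over the 22 windows of motor genes with peaks elsewhere only, 58.6% over the 28 windows of motor genes without a peak and 55.6% over all windows. A match is a description of the letters and not evidence of a bound factor.

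The partners of the motors were called on both sides. Of 27 adaptors and regulators of kinesins, 19 (70.4%) had a peak, against 26.2% of all protein-coding genes. A peak in all 6 libraries was found for 4 of them, against 2.3% of protein-coding genes. These were Mapk8ip1 and Mapk8ip3, scaffolds linking kinesin-1 to cargo, Ppfia3, a liprin that works with Kif1a, and Clstn1, a cargo receptor for Klc1. Their highest folds ran from 6.29 to 15.0, from 7.11 to 17.8, from 4.46 to 10.9 and from 3.81 to 11.3 across the libraries. Of 19 dynein regulators and adaptors, 10 (52.6%) had a peak and none had one in all 6, against the same 26.2% and 2.3%. Pafah1b1 (Lis1), which activates dynein, and Hap1, which links huntingtin to dynactin and kinesin, were called in 5 libraries each. No gene of either list was called in all libraries of 1 genotype and none of the other. Over all protein-coding genes, 0.457% had this pattern for KO and 0.215% for controls.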

How the data were processed

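Per the labels' protocols, RNA was broken by heat, 90% went to an m1A antibody and 10% served as input. Libraries were made with random hexamers after removal of ribosomal RNA. The build GRCm38 and the tools MACS2 2.2.6, HISAT2 2.1.0 and cutadapt 2.8 are named in the submitters' processing notes. Per the file headers, the authors called 1 peak list per pull-down library, with the matching input as background and a q-value cutoff of 0.01. The deposited lists give, for each peak, the pileup (a signal, the tag coverage), the −log10 of the p-value and q-value, and the fold enrichment (a ratio).

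Peaks were placed by summit in gene spans of the RefSeq table of GRCm38.p6 with Python 3.11.15, pandas 2.3.3 and SciPy 1.17.1. The 2 peaks whose summits lay in over 3 genes were dropped. Genes and regions were tested per library with Fisher's exact test and Benjamini-Hochberg adjustment, and the procedure was tested on simulated lists. Starts and upstream sequences came from a RefSeq promoter table that covered 51 motor genes. The members and gene lists were chosen with earlier results of these data known. Values by library were planned for members called in at least 4 libraries, or in all of 1 genotype and none of the other. The rest were to be given by library count and range. Values by library are also given for some of these, such as Dync1h1, Kifc3 and Kif17. Partners are named when called in all 6, and Pafah1b1 and Hap1 were named after their values were seen. Alternatives were stricter thresholds, other rules of placement and merging, lists cut to the best 3004 peaks, and libraries left out. No counting interval can be given for a presence call. Exons, peak sequences and proteins were not analysed here.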

Additional observations from a re-analysis of the deposited data

How the results depend on the processing

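The number of motor genes with a peak in any library stayed between 27 and 36 under all settings, and no gene passed the per-gene test under any. With the replicate number as a block, the KO minus control difference in motor genes with a peak was 0 (−1 to 1 over the pairs), and the smallest p that 3 pairs allow is 0.25. Libraries of the same number did not deviate together (correlations of −0.0359, −0.0588 and 0.0308 over genes), so they were not treated as pairs. Unblocked the difference was also 0. It moved to 2.67 with a −log10 q of at least 5, to −2.33 with lists of equal length and to 2.33 without peaks of pileup 3 (an alternative chosen after seeing the data), and ranged from −1.17 to 1.17 with 1 library left out. Motor genes called in all libraries numbered 8, 4 with the stricter q, and 8 to 11 with 1 library left out. Motor genes called in every KO and no control library numbered 0. They numbered 1 with the stricter q, with a fold of at least 4 or without pileup 3, and 2 without control 1 and KO 2. With 1 library left out they numbered 0 to 1 (1 without control 1 or KO 2). Motor genes called in every control and no KO library numbered 0, also with any 1 library left out, and 3 without control 1 and KO 2. For motor genes separated by genotype in this way, the share over all protein-coding genes was computed in the main setting alone. It was 0.457% for KO and 0.215% for controls, and the counts under other settings have no share beside them. Regions called in all libraries numbered 3, and 11 without control 1 and KO 2, or 3 to 9 with 1 library left out, the 9 without control 1. Region counts by genotype, and the shares given without control 1 or KO 2, come from alternatives chosen after seeing the data. Regions called in every KO and no control library numbered 3. With 1 library left out they numbered 3 to 6 (5 without control 2, 6 without KO 3). Without KO 2 they numbered 5 (6.49%), against 4.79% of regions in protein-coding genes. Without control 1 and KO 2 they numbered 5 (7.94%), against 6.48% of regions in protein-coding genes. Regions called in every control and no KO library numbered 2, and 1 with the stricter q. With 1 library left out they numbered 2 to 4. Without control 1 they numbered 4 (4.17%), against 3.74% of regions in protein-coding genes. Without control 1 and KO 2 they numbered 6 (9.52%), against 8.31% of regions in protein-coding genes. For Dync1li1 the KO minus control share of libraries with a peak was 0.333 and reversed to −0.333 with lists of equal length. For Kif1a it moved from 0 to −0.667 with lists of equal length, and for Klc2 from 0 to 0.667 when peaks in more than 1 gene were left out. Used tags differed between the genotypes in every comparison, and the part of depth in the calls was not tested.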
